A study of Mus musculus with 123 samples.

Results

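Mitochondrial ribosomal proteins were represented in the UMI (unique molecular identifier) table by 77 protein-coding genes, out of 29022 rows, whose symbol begins with Mrpl or Mrps followed by a digit. Of these, 48 carried an Mrpl symbol (large subunit series) and 29 an Mrps symbol (small subunit series). The values came from 3′-end RNA-seq of single mouse embryos (B6C3F1 in the labels; 48 Ctrl, 48 KO and 27 MWT) in 16 groups, from superovulated females, in an Oct4 (Pou5f1) and a Sox2 knockout line. Ctrl embryos had lost the maternal allele, which was floxed and deleted in the oocyte by Zp3-Cre, and carried an intact paternal allele. KO embryos had lost the maternal allele in the same way and carried a paternal knockout allele marked with a reporter under the PGK promoter, mKO2 for Oct4 and EGFP for Sox2. MWT embryos had an intact maternal allele. Ctrl and KO groups held 8 embryos each at the morula (E2.75), early inner cell mass (ICM, E3.75) and late ICM (E4.5) stages. MWT groups held 7 Oct4 morulae, 5 Oct4 early ICMs, 8 Oct4 late ICMs and 7 Sox2 early ICMs. All ICMs had been cultured from before the blastocyst stage in KSOM with the MEK inhibitor PD0325901 and isolated by immunosurgery, so that stage, culture and isolation changed together between morula and ICM. For the 13 Oct4 MWT ICMs the stage was taken from the sample title, which differs from the source field of the labels.

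Mitochondria translate the few proteins encoded in their own genome, all of them subunits of the respiratory chain or of ATP synthase, on a ribosome of their own. Its RNAs come from mitochondrial DNA, whereas every one of its proteins is encoded in the nucleus, made on cytosolic ribosomes and imported. Part of the set descends from bacterial ribosomal proteins and the remainder was added in the mitochondrial lineage. In the preimplantation embryo, mitochondria are inherited from the egg and their DNA is not replicated until about implantation, and loss of several of these proteins in the mouse is lethal at gastrulation. By class, 30 of the 77 genes encode large-subunit proteins with a bacterial counterpart, 20 large-subunit proteins treated here as particular to mitochondria, 16 small-subunit proteins with a bacterial counterpart and 10 small-subunit proteins particular to mitochondria. Mrps18a and Mrps30, in spite of their names, sit in the large subunit. The remaining gene, Mrps36, is named as ribosomal but encodes a component of the 2-oxoglutarate dehydrogenase complex.

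Promoters of nuclear genes for mitochondrial proteins are known for sites of NRF1, of ETS-family factors such as GABP, and of YY1. RefSeq windows (GRCm38.p6) from 250 bases before to 50 bases after the gene start were matched by symbol for 68 of the 77 genes. Exact matches on either strand were searched for the NRF1 core GCATGCGC, the ETS core CCGGAAG, YY1 AAGATGGC and the E-box CACGTG, none of which contains another. The ETS core was held by 25 of the 68 genes (36.8%) against 15.6% of 13929 protein-coding genes with a window, and by 39.4% of cytosolic ribosomal protein genes. YY1 letters were held by 12 (17.6%, against 4.15%), the NRF1 core by 8 (11.8%, against 4.81%) and the E-box by 5 (7.35%, against 10.4%). No searched motif was present in 29 windows (42.6%, against 70.0%). Both the NRF1 and the ETS core were present in 4 genes (5.88%, against 1.05%): Mrpl17, Mrpl22, Mrpl33 and Mrps18b. Stretches upstream of the start are shown for Mrps6 and Mrps2, described below for their changes in Oct4 KO late ICM, and for Mrpl22 and Mrpl17, which hold both cores, with any match in capitals. In Mrpl22 the ETS match began 53 bases and the NRF1 match 33 bases before the RefSeq start, and in Mrpl17 the ETS match began 237 bases before it, while the NRF1 match of Mrpl17, 11 bases before it, lies beyond the stretch shown. The stretches are Mrpl22 at chr11:58171414-58171660 (+), Mrpl17 at chr7:105811100-105811337 (-), Mrps6 at chr16:92058086-92058269 (+) and Mrps2 at chr2:28467816-28468065 (+).
Mrpl22: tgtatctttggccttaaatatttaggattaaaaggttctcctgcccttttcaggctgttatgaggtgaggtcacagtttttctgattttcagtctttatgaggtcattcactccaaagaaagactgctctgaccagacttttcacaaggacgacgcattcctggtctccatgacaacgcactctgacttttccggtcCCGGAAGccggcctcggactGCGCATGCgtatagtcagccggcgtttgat
Mrpl17: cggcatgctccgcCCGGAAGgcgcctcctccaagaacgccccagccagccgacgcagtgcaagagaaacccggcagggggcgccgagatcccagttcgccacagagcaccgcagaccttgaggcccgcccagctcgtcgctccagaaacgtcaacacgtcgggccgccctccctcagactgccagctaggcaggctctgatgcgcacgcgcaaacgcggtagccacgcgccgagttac
Mrps6: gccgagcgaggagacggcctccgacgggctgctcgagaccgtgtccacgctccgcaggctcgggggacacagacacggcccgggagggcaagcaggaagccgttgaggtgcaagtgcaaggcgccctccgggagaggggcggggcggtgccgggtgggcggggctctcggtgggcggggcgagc
Mrps2: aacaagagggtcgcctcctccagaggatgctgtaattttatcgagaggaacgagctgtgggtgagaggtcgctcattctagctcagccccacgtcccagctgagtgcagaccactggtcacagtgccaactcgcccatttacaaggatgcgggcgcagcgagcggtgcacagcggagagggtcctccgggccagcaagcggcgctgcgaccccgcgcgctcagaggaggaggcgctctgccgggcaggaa
The windows of Mrps6 and Mrps2 held none of the searched letters. A gene on the other strand had its start within 1000 bases upstream for 18 of the 77 genes (23.4%), against 1409 of 18020 protein-coding genes (7.82%).

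The knockouts were visible in the targeted genes. Pou5f1 averaged 0.405, 1.03 and 0.158 CPM (UMIs scaled to a library total of 1000000) in Oct4 KO morulae, early and late ICMs, against 20.8, 80.6 and 43.8 CPM in Oct4 Ctrl, and Sox2 averaged 1.57, 23.6 and 16.1 CPM in Sox2 KO against 13.8, 109 and 183 CPM. Totals ranged from 525755 to 1344035 UMIs per embryo. Epiblast markers were lower in KO ICMs: 10 of 12 passed the test as lower in Oct4 KO early ICM, 12 in Oct4 KO late ICM, 6 in Sox2 KO early ICM and 8 in Sox2 KO late ICM, the targeted genes included. Of 15 trophectoderm markers tested, 5, 12, 6 and 5 were higher in the same order (against 10.1%, 16%, 3.22% and 6.96% of all genes) and 3, 0, 1 and 2 lower. Of 12 primitive endoderm markers tested, 4, 4, 2 and 1 were higher and 4, 6, 0 and 1 lower. Over all genes 10.9%, 15.7%, 3.82% and 6.81% were lower in these comparisons. The summed level of the trophectoderm list was 559 to 2310 CPM in Oct4 Ctrl late ICMs and 3150 to 6510 CPM in Oct4 KO late ICMs, 522 to 2060 and 1100 to 2240 CPM at the early ICM, 254 to 826 and 1200 to 2920 CPM in Sox2 Ctrl and KO early ICMs, and 327 to 4140 and 1210 to 3890 CPM at the late ICM, where the groups overlapped over most of their range. Every epiblast and trophectoderm marker had UMIs in each of these ICM groups, while Foxa2, a primitive endoderm marker, was at 0 in Ctrl and KO early ICMs of both lines, and Sox7 in Oct4 KO early ICMs. The part of this shift in the results on ICMs was not tested, and in whole embryos or ICMs fewer cells of a type cannot be told apart from less RNA per cell.

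All 77 genes had UMIs in every embryo and all passed the filter on low counts. Their mean levels over the embryos ran from 23.2 to 658 CPM, with a median of 93.6 CPM. The 5 highest were Mrps24 (658 CPM), Mrpl57 (400 CPM), Mrpl17 (387 CPM), Mrps17 (377 CPM) and Mrpl22 (266 CPM), and the 5 lowest were Mrps27 (23.2 CPM), Mrpl23 (28.8 CPM), Mrpl48 (30.5 CPM), Mrps5 (33.8 CPM) and Mrps6 (34.8 CPM). With counts taken at the 3′ end, no division by length was made. The highest group mean exceeded the lowest by 1.41- to 5.8-fold per gene, with a median of 2.06-fold. This fold was under 2 for 33 genes and over 3 for 13 genes, the largest being those of Mrpl23 (5.8) and Mrpl22 (5.38), both of which encode proteins beside the exit tunnel of the large subunit. A gene tested needed UMIs in a share of at least 0.5 of the embryos of 1 stage. The shares over all genes given in this report are thus not matched to the family on level. The part of level in those comparisons was not tested.

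Group means of the summed level of the family lay between 8747 CPM in Sox2 KO early ICM and 10500 CPM in Sox2 MWT early ICM, and single embryos between 7384 and 10970 CPM, or 0.738% to 1.1% of all UMIs. Mrpl genes held 62.9% to 66.2% of the family's UMIs as group means. In the Oct4 line the ratio of KO to Ctrl means was 1.01 at the morula, 1.01 at the early ICM and 0.971 at the late ICM, where Ctrl embryos held 9082 ± 744 CPM and KO embryos 8819 ± 734 CPM (SD, n = 8 each). In the Sox2 line it was 1.01 at the morula, 0.896 at the early ICM and 0.915 at the late ICM. Sox2 Ctrl early ICMs held 8555 to 10710 CPM (9767 ± 817, SD, n = 8) and Sox2 KO early ICMs 8519 to 9238 CPM (8747 ± 284, SD, n = 8), with overlapping groups and 2 KO embryos below the lowest Ctrl embryo. Among these Ctrl embryos 3 lay at 10600 to 10710 CPM and the other 5 at 8555 to 9775 CPM. Cytosolic ribosomal protein genes held 15.1% to 17.2% of UMIs in those 3, 18% to 19.7% in the other 5 and 16.5% to 20% in the KO embryos. Totals were 963568 to 1051677 UMIs in those 3, 812422 to 918025 in the other 5 and 775085 to 1029244 in the KO embryos. The part of depth and of these shares in the ratio was not tested. With TMM-scaled library sizes the Sox2 ratios were 0.951 and 0.983 and the Oct4 late ICM ratio was 1.03, above 1 rather than below it. The sum is given as a description without a test.

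**Figure D1:**
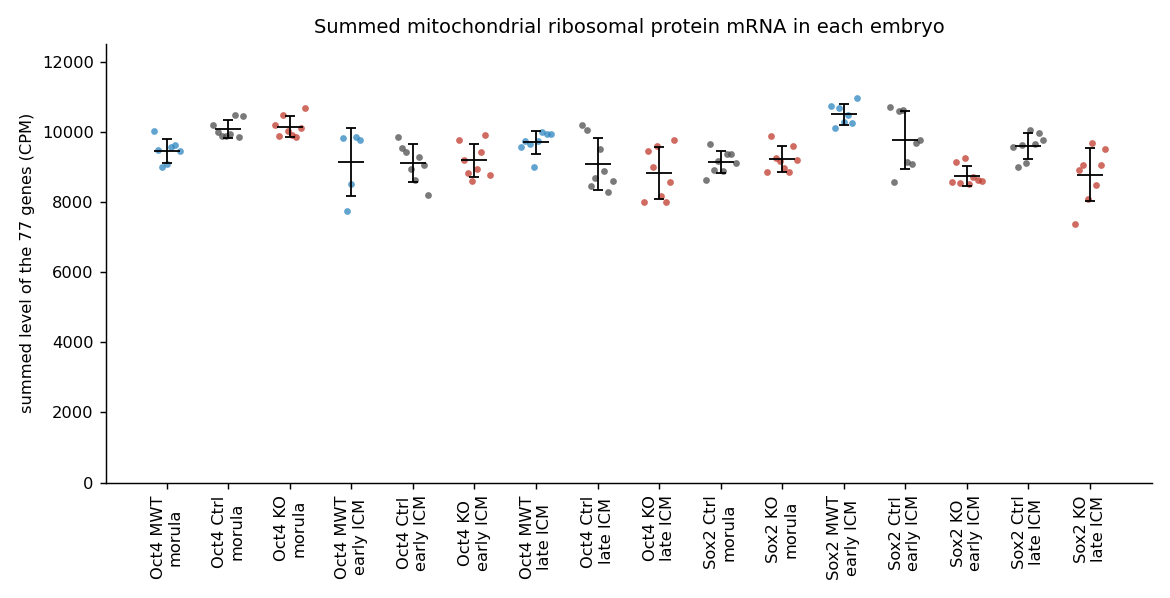
Summed level of the 77 genes in each embryo, in CPM, by line, stage and genotype. Points are embryos, dashes group means and whiskers 1 SD. The means lie between 8747 and 10500 CPM, with the Sox2 KO early ICMs (8519 to 9238 CPM) overlapping the low end of the Sox2 Ctrl range (8555 to 10710 CPM).

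The first question was whether loss of either factor altered the transcripts of these genes at each stage. At the morula none of the 77 passed edgeR's quasi-likelihood test in either line. Unadjusted p was below 0.05 for 8 genes in the Oct4 line and 2 in the Sox2 line, and DESeq2 gave 1 and 0 genes past the adjusted threshold. Over all genes tested, 1.47% passed the adjusted threshold in Oct4 KO morulae and 0.00712% in Sox2 KO morulae. Log2 fold changes of the family at the morula ran from -0.31 to 0.4 in the Oct4 line and from -0.33 to 0.3 in the Sox2 line.

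In Oct4 KO early ICMs 11 of the 77 genes rose (14.3%, against 10.1% of all genes tested) and 4 fell (5.19%, against 10.9%), at an adjusted p under 0.05. None of these reached the 2-fold minimum (a log2 fold change of at least 1), which 10.9% of all genes did. The median log2 fold change was 0.05 for the family and 0.01 for all genes. When scaled by library totals alone the split was 4 rising and 4 falling, with medians of -0.02 for the family and -0.05 for all genes. Without the low-count filter 6 passed.

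In Oct4 KO late ICMs 15 genes rose (19.5%, against 16%) and 12 fell (15.6%, against 15.7%), and with the fold minimum 1 was called (1.3%, against 18.1%). The family's share past the adjusted p was therefore near the background in each direction, and its share of changes of at least 2-fold was below it. The median was 0.04, against -0.01 for all genes, and the split became 8 rising and 15 falling when scaled by library totals. With those totals the median was -0.07, against -0.1 for all genes. With the set that the labels give each late ICM (1 or 2) as a block 14 passed, and without the low-count filter 16. Between early and late ICM, which are separate embryos, 9 genes passed in both with the same sign, which is 60% of the early and 33.3% of the late set (61.4% and 40.7% over all genes): Mrpl17, Mrpl30, Mrpl33, Mrps17, Mrps18b, Mrps23 and Mrps6 rose in both, and Mrpl50 and Mrps35 fell in both. Of the 15 genes past the test at the early ICM, 13 had the same sign at the late ICM (86.7%, against 90.9% of all genes past it).

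**Figure D2:**
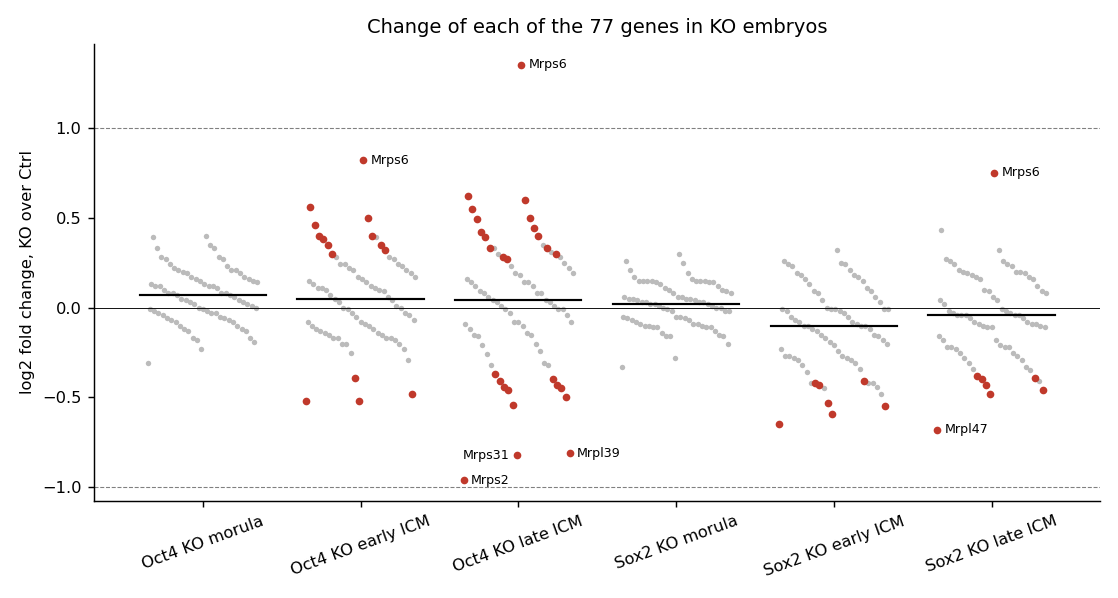
Log2 fold changes (KO over Ctrl) of the 77 genes in the 6 comparisons of the Oct4 and Sox2 lines, 8 embryos per group. Each point is a gene (red where past the adjusted p), black bars are medians and dashed lines mark the fold minimum. Values lie between -0.96 and 1.35, with Mrps6 at the top and Mrps2 at the bottom in Oct4 KO late ICM, and no gene passes at the morula.

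Mrps6, a small-subunit protein that in the bacterial ribosome lies beside S18, was the gene called with the fold minimum. In Oct4 Ctrl late ICMs it lay at 18.1 to 45.5 CPM (median 25.4) and in Oct4 KO late ICMs at 48 to 100 CPM (median 67.3). All 8 KO embryos were above all 8 Ctrl embryos. The log2 fold change was 1.35 ± 0.21 (SE, adjusted p = 1.42e-07). At the early ICM the means were 31.5 ± 6.85 CPM in Ctrl and 53.1 ± 12.9 CPM in KO (SD, n = 8 each), a log2 fold change of 0.82 ± 0.21 (SE, adjusted p = 0.00166), with overlapping groups. At the Sox2 late ICM the means were 34.4 ± 9 CPM in Ctrl and 54 ± 10.8 CPM in KO (SD, n = 8 each), a log2 fold change of 0.75 ± 0.2 (SE, adjusted p = 0.00588). The Sox2 early ICM means were 28.6 CPM in Ctrl and 28 CPM in KO. Mrps6 (chr16:92058270-92112227, +) encloses Slc5a3 (chr16:92058322-92087473, +), a myo-inositol transporter gene on the same strand, with which it shares 159 exon bases (10.4% of its own). It also shares 305 exon bases (19.9%) with Gm49711, also protein-coding on that strand, which had 0 UMIs in every Oct4 ICM group. Slc5a3 itself changed by 1.75 ± 0.42 (SE, adjusted p = 0.000886) in Oct4 KO early ICM and by 2.5 ± 0.42 (SE, adjusted p = 7.98e-07) in Oct4 KO late ICM on the log2 scale, from 4 to 21.3 CPM at the late stage. How reads in the shared bases were divided among these genes was not tested.

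Mrps2, the counterpart of bacterial S2, fell the most. It lay at 114 to 173 CPM (median 146) in Oct4 Ctrl late ICMs and at 43.1 to 82.1 CPM (median 73.8) in Oct4 KO late ICMs. The groups did not overlap, and the log2 fold change was -0.96 ± 0.13 (SE, adjusted p = 3.01e-09). The 8 Oct4 MWT late ICMs, at 112 to 192 CPM, lay near the Ctrl embryos. At the early ICM the means were 107 ± 14.3 CPM in Ctrl and 106 ± 13.3 CPM in KO (SD, n = 8 each), and the change at the late stage was lower than at the early stage by 1.02 ± 0.18 (SE, adjusted p = 0.000202) on the log2 scale. The Sox2 late ICM means were 108 CPM in Ctrl and 104 CPM in KO, and the difference between the 2 lines in the KO effect was -1 ± 0.18 (SE, adjusted p = 4.54e-05).

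Mrps31, a small-subunit protein particular to mitochondria, fell at both ICM stages when Sox2 was lost, and at the late stage when Oct4 was lost. Oct4 Ctrl late ICMs held 38.5 to 55.1 CPM (median 47.2) and Oct4 KO late ICMs 16.7 to 32.8 CPM (median 23.6), without overlap, with a log2 fold change of -0.82 ± 0.15 (SE, adjusted p = 5.41e-06). Sox2 embryos fell from 39.5 ± 7.74 to 25.8 ± 6.84 CPM at the early ICM (log2 fold change -0.55, adjusted p = 0.00778) and from 48.4 ± 11.9 to 32.4 ± 8.75 CPM at the late ICM (-0.46, adjusted p = 0.0153; SD, n = 8 each), with overlapping groups. At the Oct4 early ICM it held 69.3 ± 5.78 CPM in Ctrl and 58.9 ± 10.7 CPM in KO (SD, n = 8 each), and there it did not pass the test.

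**Figure D3:**
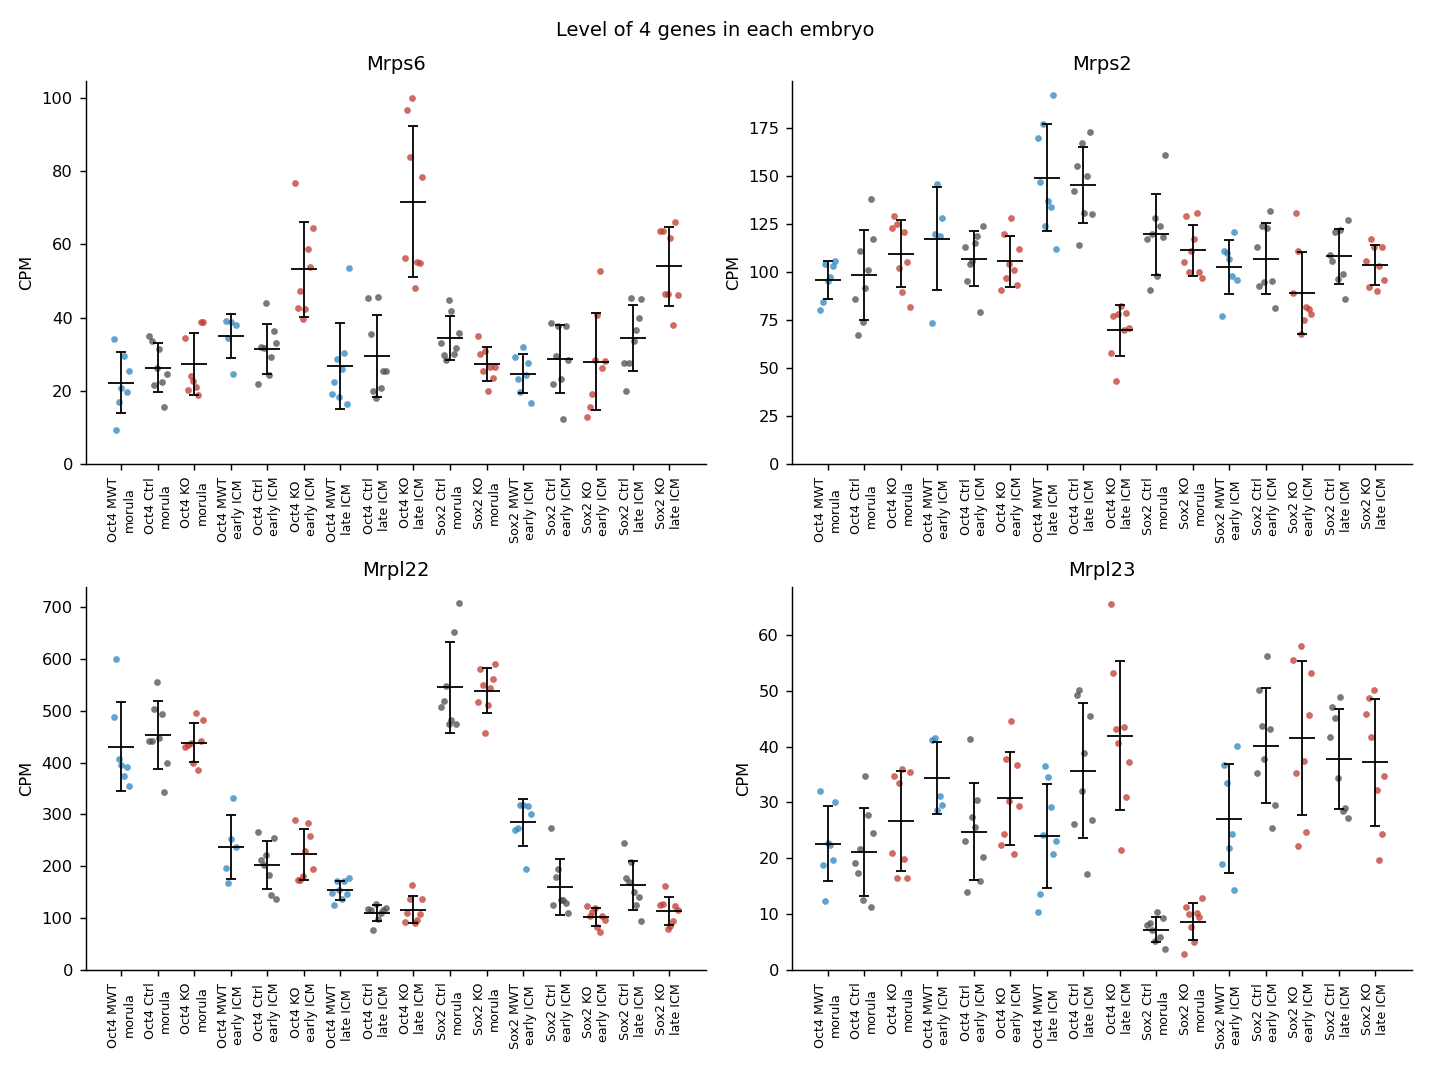
Levels of Mrps6, Mrps2, Mrpl22 and Mrpl23 in each embryo, in CPM, by line, stage and genotype, with points for embryos, dashes for group means and whiskers for 1 SD. In Oct4 KO late ICM, Mrps6 (48 to 100 CPM) lies above and Mrps2 (43.1 to 82.1 CPM) below every Ctrl embryo of that stage.

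The other genes named in the Oct4 line at the late ICM changed by less. Mrpl33, the counterpart of bacterial L33, rose by 0.62 ± 0.14 (SE, adjusted p = 0.000234) on the log2 scale, from 85.2 ± 23.1 to 124 ± 22.3 CPM (SD, n = 8 each). Mrps12, at the decoding centre, rose by 0.55 (adjusted p = 0.0101) and Mrpl12, of the flexible stalk, by 0.42 (adjusted p = 0.00348). Mrpl58, a peptidyl-tRNA hydrolase that became part of the large subunit, had a log2 fold change of -0.46 (adjusted p = 0.00282), where its change at the early ICM was 0.16 (adjusted p = 0.42). Mrpl39, named after its values were seen, had one of -0.81 ± 0.18 (SE, adjusted p = 0.00019). At the early ICM, Mrpl55 (0.56, adjusted p = 0.00707) rose, whereas Mrps11 (-0.52, adjusted p = 0.0116) and Mrpl50 (-0.52, adjusted p = 0.00366) fell. Mrps36, the dehydrogenase component, had a log2 fold change of -0.48 at the early ICM (adjusted p = 0.0415) and of 0.18 at the late ICM (adjusted p = 0.467).

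In Sox2 embryos 7 genes fell and none rose at the early ICM (9.09% lower, against 3.82% of all genes, and 0% higher, against 3.22%). At the late ICM 7 fell and 1 rose (9.09% lower, against 6.81%, and 1.3% higher, against 6.96%). None of the 77 reached the fold minimum at either stage in edgeR or DESeq2, against 3.27% and 6.95% of all genes. The median log2 fold change was -0.1 at the early ICM, against -0.01 for all genes, and -0.04 at the late ICM, against 0. Scaled by library totals, 14 genes passed at the early ICM, all of them lower, and at the late ICM 1 was higher and 15 lower. With those totals the medians were -0.17 and -0.15, against -0.08 and -0.09 for all genes. With the same label set as a block 4 passed at the late ICM, and without the low-count filter 4 and 3 at the early and late ICM. Mrpl22, Mrps18a and Mrps31 fell at both stages, which is 42.9% of the early and 37.5% of the late set (55.9% and 28.6% over all genes).

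Mrpl19, the counterpart of bacterial L19, was at 44.2 to 65.4 CPM (median 54.8) in Sox2 Ctrl early ICMs and at 22.5 to 39.5 CPM (median 34.3) in Sox2 KO early ICMs. The groups did not overlap, and the log2 fold change was -0.65 ± 0.15 (SE, adjusted p = 0.00297). Mrpl19 shares 36% of its exon bases with Gcfc2 on the opposite strand. Mrpl22 fell from 160 ± 54.3 to 101 ± 17.5 CPM (SD, n = 8 each) at the early ICM, a log2 fold change of -0.59 ± 0.15 (SE, adjusted p = 0.00665), and by 0.43 (adjusted p = 0.0458) at the late ICM. Mrpl47, another protein beside the exit tunnel, lay at 43.6 to 80.2 CPM (median 71.3) in Sox2 Ctrl late ICMs and at 21.6 to 76.1 CPM (median 35.4) in Sox2 KO late ICMs, a log2 fold change of -0.68 ± 0.17 (SE, adjusted p = 0.00242). The KO embryos at 55.1 and 76.1 CPM lay inside the Ctrl range. Mrpl1, the counterpart of the protein that forms the L1 stalk, had a log2 fold change of -0.48 (adjusted p = 0.00684) at the late ICM.

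The 2 lines have separate Ctrl groups, so the KO effects could be compared directly. At the late ICM, 4 genes passed with the same sign in both lines, Mrps6 higher and Mrpl47, Mrps31 and Mrps35 lower, which is 14.8% of the Oct4 set and 50% of the Sox2 set (25.6% and 58.8% over all genes). Of the Oct4 set 70.4% had the same sign in the Sox2 line, against 79% over all genes, and at the early ICM 33.3%, against 66.4%. At the early ICM none passed with the same sign, and 2 passed with opposite signs, Mrps18a and Mrps18b, 2 of the paralogues of bacterial S18. The difference itself (Oct4 minus Sox2 effect) passed for 8 genes at the early ICM (10.4%, against 8.12% of all genes), 6 of them positive, and for 6 at the late ICM (7.79%, against 8.67%), 3 in each direction. Without the low-count filter, and with thinned counts, 1 passed at the late ICM. The family's median difference at the early ICM was 0.19, against 0.01 for all genes. Mrps18b, named like Mrps18a after its values were seen, illustrates the early difference: it averaged 171 ± 38.5 CPM in Oct4 Ctrl and 207 ± 27.1 CPM in Oct4 KO, but 138 ± 32.5 CPM in Sox2 Ctrl and 98.7 ± 8.49 CPM in Sox2 KO (SD, n = 8 each). Its difference in effect was 0.77 ± 0.18 (SE, adjusted p = 0.00289), and that of Mrps18a was 0.87 ± 0.18 (SE, adjusted p = 0.000366). Mrps18b shares 30.5% of its exon bases with Gm16279. Between late and early ICM the effect differed for 3 genes in the Oct4 line (3.9%, against 4.46%), Mrps2, Mrps31 and Mrpl58, all more negative at the late ICM. Without the low-count filter the effect differed for 1 gene there. It differed for none in the Sox2 line by edgeR or DESeq2, with 5 at an unadjusted p under 0.05, where 0.0427% of all genes passed.

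The second question was how the family changes from morula to ICM in the Ctrl embryos. In the Oct4 line 18 genes rose from morula to early ICM (23.4%, against 23.8% of all genes) and 28 fell (36.4%, against 24.3%), 8 of them by at least 2-fold (10.4%, against 29%). From early to late ICM 20 rose (26%, against 17.2%) and 23 fell (29.9%, against 15.2%), 5 by at least 2-fold (6.49%, against 15.6%). In the Sox2 line 22 rose from morula to early ICM (28.6%, against 26.6%) and 20 fell (26%, against 25.2%), 11 by at least 2-fold (14.3%, against 31.9%). From early to late ICM 1 rose (1.3%, against 3.36%) and 2 fell (2.6%, against 3.85%), none by at least 2-fold in edgeR or DESeq2 (0%, against 2.9%). Medians of the family in the 4 steps were -0.03, -0.02, 0 and -0.03, against 0, 0.03, 0.03 and 0.01 for all genes. With library totals alone they were 0.08, -0.08, 0.07 and 0, against 0.1, -0.01, 0.09 and 0.04.

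Mrpl22 fell in both lines. It went from 344 to 556 CPM (median 445) in Oct4 Ctrl morulae to 136 to 266 CPM (median 207) in early and 76.8 to 127 CPM (median 115) in late ICMs. In the Sox2 line it went from 474 to 708 CPM (median 513) to 109 to 274 CPM (median 134) and 93.5 to 244 CPM (median 159). Morulae and early ICMs did not overlap in either line, with a log2 fold change of -1.28 ± 0.15 (SE, adjusted p = 4.14e-12) in the Oct4 line and of -1.84 ± 0.15 (SE, adjusted p = 2.68e-19) in the Sox2 line. Mrps36 rose in both lines between morula and early ICM, by 1.17 ± 0.19 (SE, adjusted p = 1.04e-07) from 23.1 to 55.6 CPM in the Oct4 line and by 1.12 ± 0.18 (SE, adjusted p = 7.6e-08) from 28 to 64.3 CPM in the Sox2 line, on the log2 scale. Mrps36 has named pseudogenes. In all, 13 genes passed this step with the same sign in both lines (28.3% of those past it in the Oct4 line, against 56.1% over all genes), and as many with opposite signs (28.3%, against 9.07%). Mrpl13, Mrpl17, Mrpl24, Mrps16, Mrps25 and Mrps36 rose, and Mrpl22, Mrpl3, Mrpl58, Mrps17, Mrps18b, Mrps23 and Mrps7 fell.

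The 5 genes known to be required for mouse gastrulation (Mrpl3, Mrpl22, Mrpl44, Mrps18c and Mrps22) all fell from morula to early ICM in the Sox2 line, a step in which 25.2% of all genes fell, with log2 fold changes from -1.84 (Mrpl22) to -0.64 (Mrps22). In the Oct4 line 2 fell (Mrpl22, and Mrpl3 with -0.29, adjusted p = 0.0381) and Mrps18c rose by 0.47 (adjusted p = 0.00716), and then Mrps18c (-1.07 ± 0.16, SE, adjusted p = 5.52e-08), Mrpl44 (-0.97 ± 0.14, SE, adjusted p = 3.73e-08) and Mrpl22 (-0.82 ± 0.15, SE, adjusted p = 1.11e-05) fell from early to late ICM, where 24.3% and 15.2% of all genes fell in the respective steps. Among these 5, none passed a KO comparison in the Oct4 line at any stage by edgeR, with 0 at an unadjusted p under 0.05. In Sox2 ICMs Mrpl22 alone passed. Over all genes 10.1% and 16% rose and 10.9% and 15.7% fell in Oct4 KO early and late ICM. In Sox2 KO early and late ICM 3.22% and 6.96% rose and 3.82% and 6.81% fell. Mrps18c shares 23.2% of its exon bases with Gm43511 on the same strand.

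**Figure D4:**
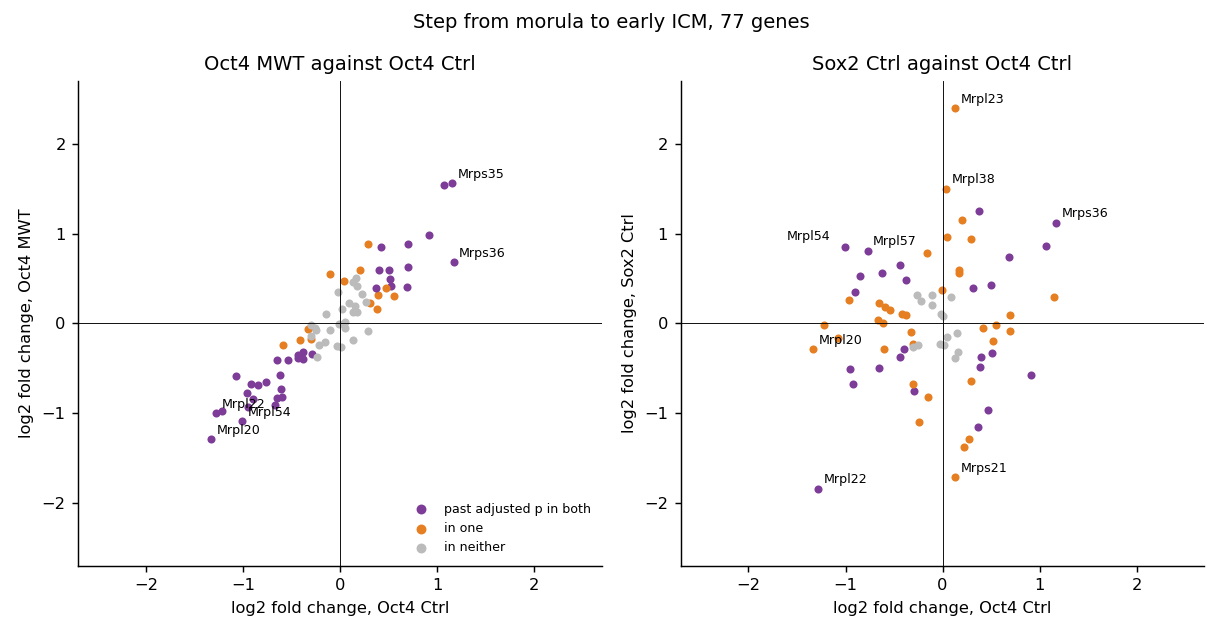
Log2 fold change from morula to early ICM of each of the 77 genes in Oct4 Ctrl embryos (x axes) against that in Oct4 MWT (left) and Sox2 Ctrl embryos (right), each point a gene, coloured by whether it passes the adjusted p in both, in 1 or in neither. Oct4 MWT steps lie along the diagonal (r = 0.92) and Sox2 Ctrl steps do not (r = 0.12), with Mrpl23 (2.4 in Sox2 Ctrl), Mrpl54 and Mrps21 away from it.

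The steps of the single genes were next set side by side among the genotypes of a line and between the lines. Of the 46 genes past the test from morula to early ICM in Oct4 Ctrl, 46 had the same sign in Oct4 MWT embryos (100%, against 96.5% over all genes). There 37 also passed (80.4%, against 70.2%), and r was 0.92 across the 77 genes and 0.81 across all genes. In Oct4 KO embryos 44 had the same sign (95.7%, against 92.1%) and 36 passed (78.3%, against 66%), with r at 0.88, against 0.73. Of the 42 past the test in Sox2 Ctrl, 41 had the same sign (97.6%, against 95.8%) and 37 passed (88.1%, against 77%) in Sox2 KO embryos (r = 0.94, against 0.83). Between the Ctrl embryos of the 2 lines 22 of the 46 had the same sign, 13 passed with the same and 13 with the opposite sign, and r was 0.12, where over all genes 78.6% of those past the test had the same sign and r was 0.67. From early to late ICM r was 0.86 between Oct4 Ctrl and Oct4 MWT (0.64 over all genes), 0.83 between Oct4 Ctrl and Oct4 KO (0.51), 0.51 between Sox2 Ctrl and Sox2 KO (0.24) and 0.12 between the Ctrl embryos of the 2 lines (0.39). Only 3 of the 77 genes passed this step in Sox2 Ctrl and 1 in Sox2 KO, none of them in both. Over all genes 15.4% of the Sox2 Ctrl set and 24.7% of the Sox2 KO set passed in both with the same sign. These r values are Pearson's, across genes that share their libraries, and are given as a description.

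The difference in step between the lines was tested directly, a contrast added after these values were seen. From morula to early ICM it passed for 44 of the 77 genes (57.1%, against 26.1% of all genes), 24 higher and 20 lower in the Sox2 line, and from early to late ICM for 30 (39%, against 13%), 17 higher and 13 lower. With library totals the latter split was 19 and 8, and with thinned counts 16 passed in that step. Mrpl23 lay at 3.72 to 10.4 CPM (median 7.57) in Sox2 Ctrl morulae and 25.4 to 56.3 CPM (median 40.4) in Sox2 Ctrl early ICMs, against 11.3 to 34.7 CPM (median 20.4) and 14 to 41.3 CPM (median 24.3) in the Oct4 line, a difference in step of 2.27 ± 0.35 (SE, adjusted p = 1.3e-07). The Sox2 Ctrl morulae held 5 to 11 UMIs of Mrpl23 each, and Mrpl23 has a named pseudogene. Mrpl54, named after its values were seen, fell from 157 ± 16.3 to 83.1 ± 19.7 CPM in the Oct4 line and rose from 84.6 ± 8.53 to 161 ± 25.3 CPM in the Sox2 line (SD, n = 8 each), and Mrpl57 fell from 428 ± 44.4 to 271 ± 24.2 CPM and rose from 239 ± 30.6 to 440 ± 56 CPM (SD, n = 8 each). Their differences in step were 1.87 ± 0.18 (SE, adjusted p = 1.82e-15) and 1.58 ± 0.15 (SE, adjusted p = 9.09e-16). Mrps21 went the other way, from 54.5 to 64.1 CPM in the Oct4 line and from 111 to 35.3 CPM in the Sox2 line, a difference of -1.84 ± 0.21 (SE, adjusted p = 1.47e-11). Between Sox2 and Oct4 Ctrl embryos of 1 stage 35 of the 77 genes differed at the morula (45.5%, against 21%), 40 at the early ICM (51.9%, against 25.9%) and 7 at the late ICM (9.09%, against 5.74%). Line, library preparation and day of collection cannot be told apart here. The base composition of the transcripts was set beside this difference. GC share and length were those of the longest protein-coding transcript of each gene, although counts came from the 3′ end. Across the 77 genes Spearman's rho between the GC share of the transcript and the difference in step from morula to early ICM was 0.48, and that with transcript length -0.27, against 0.37 and -0.18 over 12137 genes with a value. From early to late ICM rho with GC was -0.42, against -0.13 over all genes. Across 88 cytosolic ribosomal protein genes rho with GC was 0.14 for the first difference in step and -0.04 for the second. Of 88 cytosolic ribosomal protein genes tested, 11 rose and 44 fell from morula to early ICM in the Oct4 line, where 23.8% of all genes rose and 24.3% fell, and 45 rose and 18 fell in the Sox2 line, where 26.6% rose and 25.2% fell. Their difference between the lines was not tested. The part of base composition in these values was not tested.

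Other extremes of the steps fell among proteins of several roles. In the Oct4 line Mrpl20, the counterpart of bacterial L20, fell from 192 ± 13.8 to 82 ± 17.6 CPM between morula and early ICM (SD, n = 8 each; log2 fold change -1.33), and Mrps35, particular to the mitochondrial small subunit, rose (1.15). From early to late ICM Mrpl19 (-1.1) and Mrpl47 (-1.01) fell, and Mrpl57 and Mrps28 (1.02 each) rose. Among Sox2 Ctrl embryos Mrpl38, of the central protuberance, rose from 26.4 ± 3.33 to 78.7 ± 13.2 CPM between morula and early ICM (SD, n = 8 each; log2 fold change 1.5). From early to late ICM in that line Mrpl20 (0.41, adjusted p = 0.0416) rose and Mrpl17 (-0.39, adjusted p = 0.0338) and Mrpl30 (-0.38, adjusted p = 0.0143) fell. Of 6 alternative analyses Mrpl17 missed the threshold in 4, Mrpl30 in 2 and Mrpl20 in 1.

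The third question was whether these genes differed between Ctrl embryos, which had lost the maternal allele, and MWT embryos. Maternal allele, Zp3-Cre, cross, litter and day of collection cannot be told apart in this comparison. In the Oct4 line none of the 77 passed edgeR's test at the morula (0.079% of all genes) or the early ICM (0.639%), with 6 at an unadjusted p under 0.05 at each stage and 1 and 0 past the adjusted threshold in DESeq2. At the late ICM 2 passed (2.6%, against 1.58%), Mrpl4 (-0.42, adjusted p = 0.0364) and Mrpl45 (-0.46, adjusted p = 0.0454), both lower in Ctrl, and none passed in 3 of 6 alternatives (no low-count filter, other embryos in the fit, thinned counts). In the Sox2 line at the early ICM 1 was higher and 7 lower in Ctrl (10.4% in all, against 6.33%), and 4 passed in each of the same 3 alternatives. Mrpl47 (log2 fold change -0.92 ± 0.17, SE, adjusted p = 8.09e-05) went from 105 ± 28.1 CPM in 7 MWT embryos to 55.7 ± 13.3 CPM in 8 Ctrl embryos (SD), and Mrpl22 (-0.85 ± 0.15, SE, adjusted p = 5.06e-05) from 285 ± 44.6 to 160 ± 54.3 CPM (SD). Both also fell between Ctrl and KO in that line, Mrpl22 at the early and late ICM and Mrpl47 at the late ICM. Pou5f1 lay at 97.7 to 133 CPM in the Sox2 MWT and at 40.5 to 88.6 CPM in the Sox2 Ctrl early ICMs, without overlap, and the summed primitive endoderm markers had means of 1566 ± 202 and 1087 ± 293 CPM (SD, n = 7 and 8). Their part in these results was not tested. The family members given for these comparisons, other than Mrpl22 and Mrpl47, were named after their values were seen.

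Genes that work with the mitochondrial ribosome were counted in the same 4 ICM comparisons (Oct4 KO early and late, then Sox2 KO early and late). Of all genes tested 10.1%, 16%, 3.22% and 6.96% rose and 10.9%, 15.7%, 3.82% and 6.81% fell in them. Of the 13 protein-coding genes of mitochondrial DNA, whose mRNAs this ribosome translates, 4 rose in Oct4 KO early ICM, among them mt-Nd5 (0.88, adjusted p = 1.17e-05, named after its value was seen), and 5 fell in Oct4 KO late ICM, of which mt-Nd4l (-2.06 ± 0.68, SE, adjusted p = 0.014) passed the fold minimum. None passed in the Sox2 ICMs by edgeR, with 0 at an unadjusted p under 0.05. Of 15 mitochondrial translation factors, 1 fell in Oct4 KO early ICM, 2 rose and 4 fell in Oct4 KO late ICM, none passed in Sox2 KO early ICM by edgeR (1 at an unadjusted p under 0.05) and 1 fell in Sox2 KO late ICM. Mtif2, the initiation factor (-1.17 ± 0.4, SE, adjusted p = 0.0186), and Mtrf1l, a release factor (-1.13 ± 0.32, SE, adjusted p = 0.00397), were called in Oct4 KO late ICM. Of 24 assembly factors 0, 2, 3 and 3 fell and none rose. Of 17 mitochondrial aminoacyl-tRNA synthetases 4, 1, 0 and 2 rose and 1, 1, 1 and 2 fell, with Cars2 called in Oct4 KO early ICM (1.27 ± 0.33, SE, adjusted p = 0.00252). Of 9 genes for transcription and replication of mitochondrial DNA 1 rose in Oct4 KO early ICM. Of 5 further proteins of the mitochondrial ribosome without an Mrp symbol, none rose and 1, 2, 0 and 0 fell. Of 11 regulators of nuclear genes for mitochondrial proteins 1, 2, 1 and 0 rose and 2, 4, 0 and 1 fell. Esrrb, also a pluripotency factor, fell in the Oct4 line by 2.2 and 3.61 on the log2 scale (adjusted p = 8.73e-13 and 2.33e-18). Mycn rose by 1.22, 1.07 and 1.62 in Oct4 KO early, Oct4 KO late and Sox2 KO early ICM (adjusted p = 0.033, 0.0297 and 0.0298), and Myc had a log2 fold change of -1.42 (adjusted p = 0.0197) in Sox2 KO late ICM.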

How the data were processed

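Single embryos had been reverse-transcribed with a UMI-bearing oligo-dT primer, amplified and sequenced as 3′-end libraries. Per the labels and the study's methods, the authors made the deposited UMI count table with UMI-tools, Cutadapt, TopHat2 with Bowtie2 on mm10, GENCODE vM23 genes, featureCounts and TRUmiCount. Tool versions and use of strand were not given in the sources used here. A deposited table of regularised log2 values was not used. Counts were tested with edgeR 4.0.16 (R 4.3.3): TMM scaling, genes detected in a share of at least 0.5 of the embryos of 1 stage, and quasi-likelihood tests with Benjamini-Hochberg adjustment over all genes. The 96 Ctrl and KO embryos were fitted in 12 groups (14053 genes) and all 123 in 16 groups (13923 genes) for MWT. A gene passed at an adjusted p under 0.05, and was called where its absolute log2 fold change was also at least 1. SE was derived from the fold change and the F statistic. CPM used library totals as denominators.

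The 77 genes, lists and comparisons were chosen with earlier results of these data known. Genes were named by role (the 5 required for gastrulation, Mrpl12, Mrps12, Mrpl58 and Mrps36), as the 2 lowest and 2 highest log2 fold changes of each ICM and stage comparison among those past the adjusted p with at least 20 CPM in the higher group, when called, or as the 5 highest and 5 lowest levels. Genes of other lists were named where called. Others are stated as chosen after their values were seen. On simulated counts for Oct4 KO late ICM (14053 genes, 100 changed at each size), 76 changes of log2 size 1 and 15 of size 0.5 were recovered. The changed genes were drawn from those of at least 20 CPM in Ctrl. All others were left unchanged, whereas 2250 genes rose and 2200 fell in the data, so recovery there can differ. Counts of 416 embryo pairs of 1 group differed by more than sampling noise (lowest chi-square per gene 2.41), so each was kept as 1 replicate. Embryos are separate samples, but litters were not given, and p-values measure the spread between these embryos. With totals of 525755 to 1344035 UMIs, precision is limited by counting at low levels. All 77 genes had the same coordinates in GENCODE vM21, against which overlaps were counted: 29 share exon bases with another gene of the table, 5 of them on the same strand and 25 on the opposite one, 8 over more than 20% of their exon bases, and 3 (Mrpl23, Mrpl48 and Mrps36) have a named pseudogene, so that reads could be divided or missed there.

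Alternatives were size factors or totals for scaling, no filter, DESeq2 1.42.0, other embryos in the fit, thinned counts, a replicate block, the label set of late ICMs as a block, no fold minimum and, for the group of 5, leaving out each embryo. The replicate numbers were checked over 30 pairs of equal number: correlations of deviations ran from -0.2 to 0.23, 7 were over 0.1, and no comparison with 3 or more pairs had all of them over 0.1, so that the numbers were not taken to pair embryos. ERCC spike-ins were not used here.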

Additional observations from a re-analysis of the deposited data

Results flagged for a closer look

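Single embryos stood apart from the others of their group in 24 of 464 sets of values examined (5.17%), where chance gives about 1 in 20. In Ctrl embryos these were Mrps18c at 77.4 CPM (others 37.1 to 47.7), Mrps11 at 130 CPM (others 70.6 to 93.9) and Mrps21 at 48.4 CPM (others 29.1 to 38.1) in Sox2 Ctrl early ICM. In Sox2 Ctrl late ICM they were Mrpl1 at 109 CPM (others 49.8 to 75.9), Mrpl47 at 43.6 CPM (others 64.3 to 80.2) and Mrpl50 at 18.8 CPM (others 33.1 to 43.4). In the Oct4 line they were Mrpl58 at 58.3 CPM (others 70.4 to 77.8) in Ctrl early ICM, and Mrpl19 at 80.3 CPM (others 20.9 to 38.8) and Mrpl17 at 531 CPM (others 314 to 404) in Ctrl late ICM. In KO embryos they were Mrpl44 at 79.3 CPM (others 117 to 150), Mrpl20 at 231 CPM (others 141 to 174) and Mrps11 at 47.3 CPM (others 72.5 to 85.4) in Oct4 KO morula, Mrpl30 at 156 CPM (others 222 to 271) and Mrps21 at 22.4 CPM (others 40.4 to 56.5) in Oct4 KO late ICM, and Mrpl1 at 68.5 CPM (others 39.1 to 50.5) in Sox2 KO late ICM. In MWT embryos they were Mrps11 at 96.6 CPM (others 58.8 to 73.7), Mrpl47 at 122 CPM (others 66.7 to 83.1) and Mrps12 at 24.9 CPM (others 56.4 to 65.2) in Oct4 morula, Mrpl12 at 112 CPM (others 141 to 151) in Oct4 early ICM, and Mrps6 at 53.4 CPM (others 16.3 to 30.2) and Mrps28 at 271 CPM (others 149 to 189) in Oct4 late ICM. The summed level was 9002 CPM (others 9555 to 9988) in 1 Oct4 MWT late ICM. In Sox2 MWT early ICM Mrpl22 was at 194 CPM (others 270 to 318) and Mrpl30 at 221 CPM (others 257 to 276).

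The KO effect differed by the test of the difference itself, on the log2 scale. At the early ICM the Oct4 effect minus the Sox2 effect was 0.81 for Mrpl10, 0.58 for Mrpl32, 0.81 for Mrpl22, 0.87 for Mrps18a, 0.77 for Mrps18b, 0.84 for Mrpl55, -0.83 for Mrps11 and -0.72 for Mrps36. At the late ICM it was -0.72 for Mrpl39, 0.6 for Mrps18b, -1 for Mrps2, 0.62 for Mrpl41, -0.72 for Mrpl50 and 0.55 for Mrps7. Between late and early ICM in the Oct4 line it was -0.62 for Mrpl58, -0.66 for Mrps31 and -1.02 for Mrps2.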

How the results depend on the processing

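Of the recomputed counts and ratios of sums 179 stayed close to the value reported (counts within 1.5 times, ratios within 1 SD) and 43 did not. Of the recomputed values of named genes 179 kept their direction and side of the threshold, 13 kept the direction only and none reversed. In Oct4 KO late ICM the log2 fold change of Mrps6 ranged from 1.26 to 1.51 and that of Mrps2 from -1.06 to -0.91. Counts of genes past the adjusted p moved as follows, in the order Oct4 KO early, Oct4 KO late, Sox2 KO early and Sox2 KO late ICM. With library totals alone they were 8, 23, 14 and 16 (2 with the fold minimum in Oct4 KO late ICM). Without the low-count filter, where more genes are tested, they were 6, 16, 4 and 3, and with counts thinned to the lowest total 7 (1 with the fold minimum), 16, 2 and 4. Without a fold minimum the calls were 15, 27, 7 and 8. With the label set of late ICMs as a block 14 and 4 passed at the late stage, Mrps6 (1.43, adjusted p = 1.07e-05) and Mrps2 (-0.97, adjusted p = 4.26e-05) among them in the Oct4 line. Without the filter, Sox2 early to late ICM gave 0, the difference between lines at the late ICM 1, that between late and early Oct4 KO effects 1, Oct4 Ctrl against MWT late ICM 0 and Sox2 Ctrl against MWT 4. Thinned counts gave 1 for Sox2 early to late ICM, 5 and 1 for the differences between lines at the early and late ICM, 0 and 4 for the same MWT comparisons, and 16 for the difference in step from early to late ICM. With other embryos in the fit the MWT counts were 0 and 4. DESeq2 gave 1 each for Oct4 KO morula and Oct4 Ctrl against MWT morula. The Sox2 KO early ICM ratio of sums was 0.951 with TMM library sizes. Leaving out each of the 5 Oct4 MWT early ICMs gave 0 to 0 genes. The causes were not tested.

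With the replicate number as a block, fitted on the embryos whose numbers both groups share, Oct4 KO morula gave 1 gene, Oct4 KO early ICM 1 (1 with the fold minimum), Sox2 KO early ICM 2, Sox2 KO late ICM 1, Oct4 Ctrl morula to early ICM 26, Sox2 Ctrl morula to early ICM 18 and Sox2 Ctrl against MWT 4. In them Mrpl50, Mrpl55 and Mrps11 (Oct4 KO early ICM), Mrpl19 (Sox2 KO early ICM) and Mrpl1 and Mrps6 (Sox2 KO late ICM) missed the threshold with the same direction. These fits hold fewer embryos, and the numbers were not shown to pair them. No paired analysis was possible because fewer than 2 numbers were shared for Oct4 KO late ICM, Sox2 KO morula, the early to late steps and Oct4 Ctrl against MWT late ICM. Depth limits the genes of lowest level most, where a few UMIs per embryo set the count.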
